A study of Drosophila melanogaster with 65 samples.

Results

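The genes described here are 71 Drosophila melanogaster noncoding genes that carry no name beyond a CR number, the symbol FlyBase gives to an annotated transcript with no evident protein product. They were chosen from the gene tables of a long RNA-seq series, among genes whose symbol is CR with 4 or 5 digits. Chromosome 4 and the pericentric ends of 2L, 3L and 3R were left out, but no part of 2R or the X was. Every such gene with at least 5 CPM (unique sense reads of a gene scaled to a common library sum) in at least 3 of 24 libraries was kept. Of 2349 CR genes in the allowed regions, and 16369 genes in the tables, 71 met that level. The level chose them, so the levels below are descriptions with no test. The third highest CPM was 5.03 in CR45224, 5.13 in CR43256 and 5.21 in CR32111, the genes just inside. It was 4.91 in CR46095, 4.84 in CR44748 and 4.80 in CR17025, the genes just outside.

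Long noncoding RNAs are transcripts of gene length that are not translated; many overlap a coding gene on the same or the opposite strand, and few have a known function. In the fly ovary the transcription factor Traffic jam (TJ) marks somatic cells. The same cells make PIWI-interacting RNAs (piRNAs) from flamenco, a long noncoding locus on the X, and load them on Piwi, which silences transposons. Cubitus interruptus (Ci) is the transcription factor of the Hedgehog pathway.

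The libraries were made from OSS, a line of somatic cells derived from the fly ovary, and from dissected ovaries. OSS cells received an siRNA against TJ (siTj), Piwi (siPiwi) or Ci (siCi), or a control siRNA against GFP (siGFP), with 3 libraries in each group. Ovaries came from 6 fly lines named FITS, FPSE1, FPSE2A, FPSE2B, FlamBG and FlamKG, each with 1 mutant and 1 wild-type (WT) library. The series describes new deletions near the flamenco promoter, but the sample titles do not say which lines carry them. The exact allele, age and pooling of the flies are not given in the sources used here. OSS is a single line, and no source used here says that the 3 libraries of a group were separate cultures, so each p-value reflects variation among libraries that may be technical.

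Unique sense reads on genes numbered 9075806 to 54359738 per OSS library and 9676965 to 81892058 per ovary library. The 71 CR genes held 0.216 to 0.377% of them in OSS and 0.271 to 0.459% in ovaries. Each siRNA target was lower in all 3 of its libraries than in all 3 siGFP libraries: tj had 501, 229 and 608 CPM after siTj against 1809, 1176 and 1327 CPM after siGFP. OSS libraries siPiwi 2 and siTj 2 stood apart: 12.36% and 9.27% of their unique reads lay antisense to genes, against 3.87 to 7.32% in the other 22 libraries. The summed level of 8 germline markers was 164 CPM in siPiwi 2, 108 CPM in siTj 2 and 17.0 to 42.2 CPM in the other OSS libraries, and 2435 to 5400 CPM in WT ovaries. Among the 12 OSS libraries siPiwi 2 was the highest for 37 of the 71 CR genes (52.1%), and for 22.4% of 9049 other genes at the same level. The part of those reads in any result below was not tested, and results that rest on these libraries are given without them.

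All 71 CR genes matched a RefSeq entry (Release 6 assembly), 68 with the same start and end; RefSeq types 58 as lncRNA and 13 as antisense RNA. The X carried 24 of them, 3R 18, 3L 15, 2R 7 and 2L 7. The X share was 33.8%, against 17.0% of the other genes at the level and 12.6% of the 2349 CR genes. A locus spanned 214 to 239347 bp, with a median of 5069 bp.

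Where the reads lay within a locus split the group. In 29 CR genes at least 50% of the unique sense reads fell in the gene's own exons, and in 26 of those at least 95% did. In the other 42 most reads lay outside the annotated exons, and in 22 genes under 2% of reads were exonic. The median exon share was 30.0% over the CR genes and 100.9% over other genes at the level, where exon sums can pass the locus sum slightly; 4.9% of other genes lay under 50%. Loci of the exonic kind were short, with a median of 1724 bp, and the others long, with a median of 17559 bp.

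**Figure D1:**
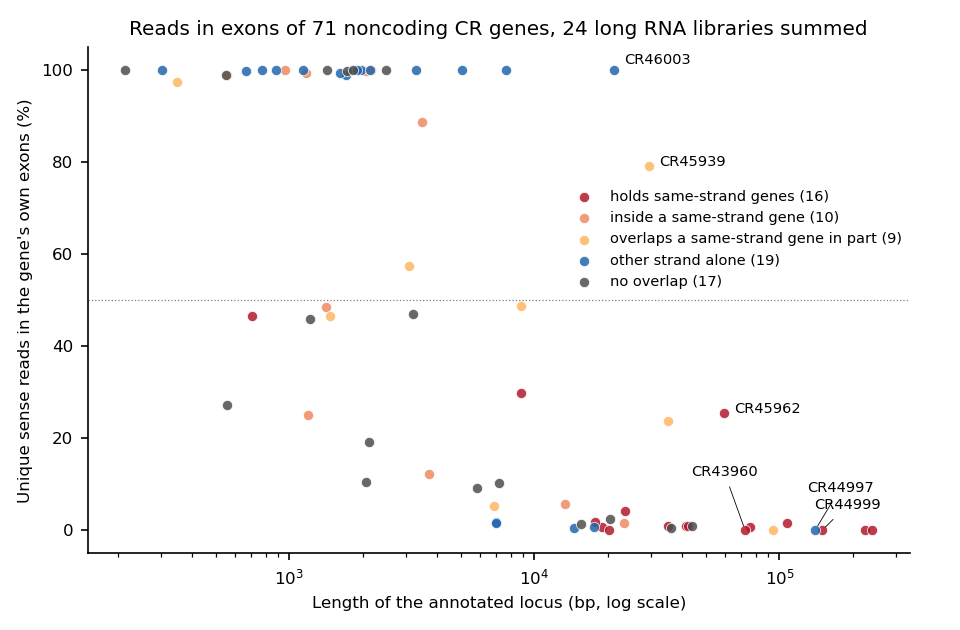
Exon share of the reads (%, y axis) against locus length (bp, log x axis) for the 71 noncoding CR genes, 1 point a gene, coloured by overlap with other genes; the dotted line marks 50%. All 16 loci that hold same-strand genes lie under the line, and 29 genes lie above it.

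Overlap with other genes ran along the same divide. A same-strand gene lay inside 16 of the loci, all of them of the low-exon kind. Another 10 CR genes lay inside a same-strand gene and 9 overlapped one in part. Opposite-strand overlap alone was found for 19, of which 14 were exonic, and no overlap at all for 17, of which 6 were exonic. Reads of the 35 CR genes with a same-strand partner cannot be split from that partner's reads in locus counts, and their values are uncertain for that reason. Of the remaining 36, 20 were exonic; the other 16 spanned 558 to 140359 bp with a median of 7049 bp.

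The CR genes with the highest counts were such hosts. CR44999 averaged 754 CPM over the 24 libraries, and Myc, the growth regulator that lies inside it on the same strand, had counts equal to 78.5% of its reads over all libraries pooled. That share differed between tissues: it was 20 to 36% in siGFP libraries and 79.9 to 88.3% in WT ovaries. CR44357 averaged 611 CPM, and CG1677 equalled 96.6% of it, with 83.4 to 99.4% in every group. CR32773 averaged 467 CPM, with 46.9% from CG11444 and 29.3% from rb, a subunit of the AP-3 vesicle adaptor. CR43960 averaged 148 CPM through 1 library, the FlamKG mutant, and 47.1 CPM over the others. The mucin gene Muc11A inside CR43960 equalled 94.1% of the pooled reads, but 0.9 to 10.3% in siGFP libraries and 23.5 to 94.2% in WT ovaries, and in siGFP libraries CG34323 equalled 60.6 to 97.0%.

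In 5 of the 16 host loci the summed counts of the nested genes came to at least 90% of the pooled locus reads, and in 8 to under 10%. Nested genes can overlap each other, so a read may count in both and the sum may pass the locus total, as in CR44357 (122.1%). The exon parts of all 71 CR genes together held 6.5 to 23.7% of their reads in a library. The 3 CR genes highest by mean CPM, CR44999, CR44357 and CR32773, together held 22.6 to 76.1% of the reads of all 71 in a library.

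CR44997 was the highest with no same-strand partner, at 144 CPM on average. It spans 22657324 to 22797682 on the X plus strand, and only 0.19% of its reads were exonic. CR42862 (137 CPM) overlaps CG33229 in part, whose counts were nearly identical, with 28.6 CPM in CR42862 and 28.7 CPM in CG33229 in siGFP 2.

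Per kilobase of exon, which allows levels to be set between genes, 42 of the 71 reached 1 RPKM in siGFP or in WT ovaries and 10 reached 10 RPKM. Those named here outside the highest by count were chosen after their values were seen. The highest was CR40469, a 214 bp gene on the X with no overlapping gene, at 70.5 ± 59.5 exon RPKM in WT ovaries (SD, n = 6). CR33963, inside Tis11 on the same strand, had 40.6 ± 22.8 exon RPKM in siGFP cells (SD, n = 3). CR45939, which overlaps ftz-f1, a nuclear receptor gene, had 40.5 ± 21.1 exon RPKM in siGFP cells (SD, n = 3) and 35.5 ± 10.1 in WT ovaries (SD, n = 6). CR45995, free of same-strand overlap, had 20.9 ± 17.8 exon RPKM in siGFP cells (SD, n = 3). CR45995 was the lowest of CR33963, CR45939 and CR45995 in each siGFP library, while the order of CR33963 and CR45939 differed between libraries.

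Antisense reads were common at these loci. The median antisense share of unique reads was 22.1% over the CR genes and 1.81% over other genes at the level. It passed 50% in 16 CR genes, against 3.61% of other genes. For CR44169, CR45822, CR45835, CR46134 and CR46195 the sense share was at or below the antisense share of the whole library in at least 12 libraries, and for 48 CR genes it was above in every library. Where the opposite gene is abundant, sense reads of a CR gene at or below that share cannot be told apart from reads given the wrong strand.

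OSS cells after siGFP were set against WT ovaries. Of the 71 CR genes, 21 were higher and 24 lower in OSS cells by edgeR at an adjusted p of 0.05, together 63.4%; over all 11753 genes tested 43.4% were called, 19.5% higher and 23.9% lower. The median log2 fold change was -0.49 over the CR genes and -0.28 over all genes. These counts follow in part from the choice of genes and nothing is read from them. The level was reached in OSS libraries alone by 18 CR genes, of which 16 were called higher, and in ovaries alone by 22, of which 20 were called lower; 74.6% and 75.9% of all genes of those kinds were called. Such genes entered through the tissue where they are high, so their values are given below with no p. Of the 26 CR genes that reached the level in both tissues, 5 were higher and 4 lower, and 44.3% of 7105 such genes were called. Cell line and tissue differ in cell types, culture and library batch at once, and these cannot be told apart; in bulk RNA, fewer cells of a type and less RNA per cell cannot be told apart either.

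The 9 called CR genes at the level in both tissues are all named, a choice made after their values were seen. CR44997 had 399, 289 and 424 CPM in siGFP libraries, against 4.49 to 23.6 CPM in WT ovaries with a median of 5.92 CPM. The log2 fold change was 5.09 ± 0.51 (SE, edgeR adjusted p = 2.2e-05), and all siGFP values exceeded all ovary values. CR45054, with no overlapping gene, had 74.6, 60.15 and 71.01 CPM in siGFP libraries, against 12.9 to 45.2 CPM in WT ovaries, again without overlap (log2 1.60 ± 0.35, SE, edgeR adjusted p = 0.00332). CR45668, with an opposite-strand overlap alone, had 30.6, 18.5 and 14.6 CPM in siGFP libraries and 5.09 to 14.8 CPM in WT ovaries, ranges that overlap slightly (log2 1.21, edgeR adjusted p = 0.0461). These 3 were the called genes of this class with no same-strand partner.

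The other 6 have a same-strand partner, and their values are uncertain. CR33963, inside Tis11, which encodes an RNA-binding protein that promotes mRNA decay, was higher in siGFP cells by 2.58 on the log2 scale (edgeR adjusted p = 0.000338), while Tis11 was lower (log2 -1.18, edgeR adjusted p = 0.00711). CR43963 was higher by 1.74 (edgeR adjusted p = 0.0013). CR42862 was lower (log2 -2.95, edgeR adjusted p = 0.00464) as was CG33229 (log2 -2.94), and CR44999 (log2 -2.22, edgeR adjusted p = 0.0013) as was Myc (log2 -3.71). CR45082 was called lower (log2 -2.33), but no p is given for it. In OSS cells it reached the level through siTj 2 (17.7 CPM), siPiwi 2 (27.9 CPM) and siGFP 2 (7.67 CPM) alone. CR43836 was lower (log2 -2.21, edgeR adjusted p = 0.000831), while CG10962 inside it was higher (log2 1.41, edgeR adjusted p = 0.0377). Partners thus went the same way in some pairs and the opposite way in others.

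Several CR genes at the level in OSS cells alone were close to 0 in ovaries. CR45995, opposite CG11584 on the X, had 65.2, 27.7 and 8.65 CPM in siGFP libraries, against 0.00 to 0.25 CPM in WT ovaries with a median of 0.06 CPM (log2 8.63 ± 0.81, SE). CG11584 itself was at 0.00 to 0.11 CPM in the siGFP libraries and at most 0.38 CPM in WT ovaries.

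CR46134, opposite CG1109, had 17.6, 9.29 and 7.05 CPM in siGFP libraries, against 0.00 to 0.37 CPM in WT ovaries with a median of 0.17 CPM (log2 5.83 ± 0.66, SE). Its antisense share was 92.43%, since CG1109 is the more abundant of the pair. The sense share of CR46134 lay above the library's antisense share in all 3 siGFP libraries and at or below it in all 6 WT ovaries, so the ovary reads cannot be told apart from wrong-strand reads.

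CR46219, with no overlapping gene, had 9.59, 4.73 and 9.56 CPM in siGFP libraries and at most 0.57 CPM in WT ovaries (log2 5.27 ± 1.06, SE). CR45822, opposite the insulator gene CTCF, had 5.29, 5.83 and 7.16 CPM in siGFP libraries, against 0.00 to 2.27 CPM in WT ovaries, the highest of them in FlamBG (log2 3.98 ± 1.47, SE, and 6.96 without FlamBG). Its antisense share was 94.44%, and its sense share was at or below the library's antisense share in 1 siGFP library and 5 WT ovaries.

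CR45893, inside CG4998 on 3L (16343189 to 16345241), was higher by 4.93 on the log2 scale beside CG4998 at 4.16, and CR45717 by 6.43 beside the transporter gene MFS3 at 6.13. CR46089 stood at 3.74.

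CR genes at the level in ovaries alone were near 0 in OSS cells. CR46147, inside mthl1 on the opposite strand, had no read in the 3 siGFP libraries, against 0.89 to 12.7 CPM in WT ovaries with a median of 2.98 CPM. Against a floor of 3 counts over the siGFP group it was at least 112-fold lower. CR45756 had 3 reads over the siGFP group, against 0.93 to 11.2 CPM in WT ovaries with a median of 5.81 CPM. The ratio was 194-fold lower (95% interval 66.4 to 941, counting error only).

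CR45756 overlaps Ilp8, a relaxin-like insulin family gene on 3L, in part, and CR43250 starts 1068 bp from CR45756. CR43250 had 0.00, 0.09 and 0.17 CPM in siGFP libraries, against 7.68 to 31.8 CPM in WT ovaries with a median of 17.5 CPM. The log2 fold change was -7.49 ± 0.75 (SE) for CR43250 and -7.00 for Ilp8.

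CR46195, opposite the polymerase gene Trf4-1, had 0.00, 0.11 and 0.00 CPM in siGFP libraries and 1.59 to 9.79 CPM in WT ovaries (log2 -6.79). Its sense share was at or below the library's antisense share in all 3 siGFP libraries and in 1 WT ovary. CR45102, on the X with no overlap, had 0.22, 0.26 and 0.44 CPM in siGFP libraries and 4.66 to 28.4 CPM in WT ovaries (log2 -5.47). CR43256, CR43241 and CR42861 were lower by 5.78, 5.49 and 5.17 on the log2 scale; none of these CR genes had a siGFP value as high as its lowest WT ovary value.

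**Figure D2:**
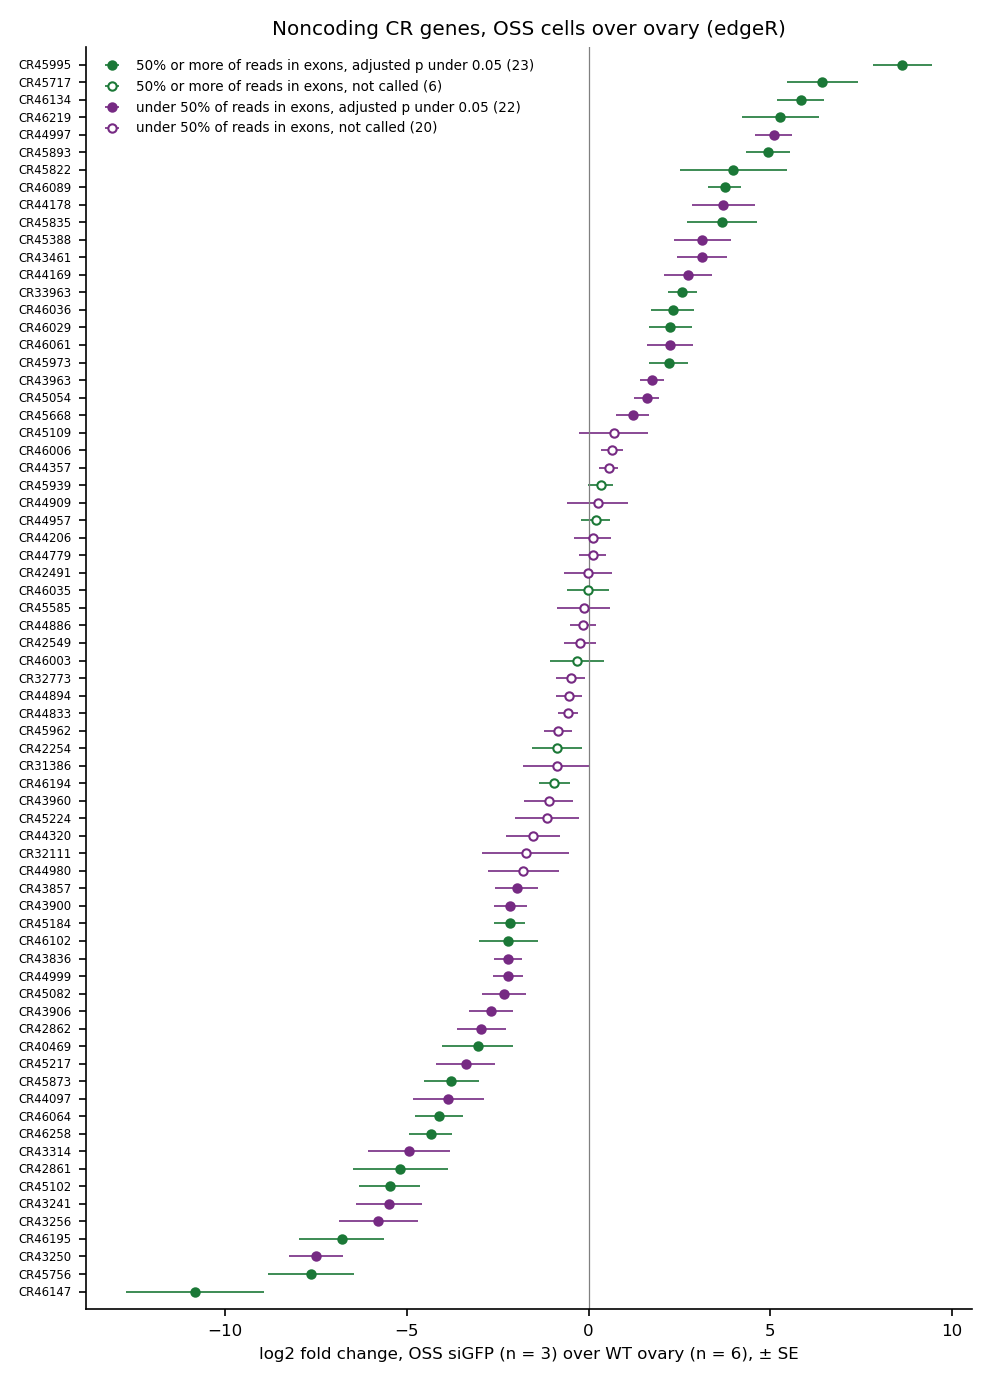
log2 fold change of OSS siGFP cells (n = 3) over WT ovaries (n = 6) for each of the 71 noncoding CR genes (x axis, points with ± SE from edgeR), ordered by size; filled points passed an adjusted p of 0.05. Both colours, exonic and low-exon genes, occur at both ends; the value of CR46147, at 0 reads in siGFP cells, is a fitted one and no measure of size.

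By kind, 12 of 29 exonic CR genes were called higher and 11 lower, and 9 of 42 low-exon genes higher and 13 lower. Over all 11753 genes tested 19.5% were called higher and 23.9% lower. These counts too follow in part from the choice of genes, and nothing is read from them. Across genes, the log2 fold change of a CR gene and of its leading same-strand partner correlated at r = 0.76 over 30 pairs, which share reads, and at r = 0.46 over the 21 pairs whose CR gene is of the low-exon kind. With the leading opposite-strand gene r was 0.12 over 35 pairs. Genes are not independent replicates, and these r values are descriptions.

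After siTj, 62 of the 71 CR genes passed the filter on low counts. None was called by edgeR without a block, where 5 of 10724 genes were called (0.0466%); 7 CR genes (of 62) and 7.35% of all genes had an unadjusted p under 0.05. Libraries with the same replicate number varied together, and with the replicate number as a block 2 CR genes were called, both higher, or 3.23%. Over all genes 3.52% were called, 2.06% higher and 1.45% lower, so the CR genes' share was near the background. DESeq2 without a block called 2, CR46089 higher and CR46134 lower, with 1.96% of all genes called. The median log2 fold change with the block was 0.32 over the CR genes and 0.02 over all genes; without siPiwi 2 and siTj 2 it was 0.06 and -0.05. Without the block the CR genes' median was 0.39 with those 2 libraries and -0.16 without them, against 0.08 and -0.11 over all genes.

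CR45893, within CG4998, had 174, 243 and 73.6 CPM after siTj, against 37.5, 31.3 and 12.8 CPM after siGFP. All siTj libraries lay above all siGFP libraries, and each also lay above the siGFP library of its own number. With the replicate block CR45893 rose by 2.56 ± 0.53 on the log2 scale (SE, edgeR adjusted p = 0.0282); without it the value was 2.60 (edgeR adjusted p = 0.513). CG4998 itself rose by 2.76 with the block (edgeR adjusted p = 0.0222), with 408, 713 and 235 CPM after siTj against 68.5, 82.6 and 38.5 CPM after siGFP. Since 99.75% of the CR45893 reads lie in exons that sit inside CG4998 on its strand, the pair cannot be separated.

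CR46089, a 5069 bp antisense RNA opposite CG17119 on 3R (23052916 to 23057984), had 34.6, 67.6 and 12.9 CPM after siTj, against 6.17, 7.97 and 5.15 CPM after siGFP. Again no siTj library fell within the siGFP range. It rose by 2.34 ± 0.50 (SE, edgeR adjusted p = 0.0315) with the replicate block; without it the value was 2.60 (edgeR adjusted p = 0.338). CG17119, the gene on the other strand, had a log2 difference of -0.02 with the block (edgeR adjusted p = 0.983).

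Both genes were also high in siPiwi 2, with 146 CPM for CR45893 and 33.1 CPM for CR46089. The other siPiwi libraries had 18.3 and 8.01 CPM for CR45893, and 4.91 and 6.26 CPM for CR46089.

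CR46134 ran the other way, with 2.31, 1.67 and 3.57 CPM after siTj against 17.6, 9.29 and 7.05 CPM after siGFP, ranges that do not overlap. Its log2 difference was -2.12 with the block (edgeR adjusted p = 0.0705) and -2.18 without (edgeR adjusted p = 0.373). It fell by DESeq2 (adjusted p = 0.0245) and, with the block on exon reads alone, by edgeR (adjusted p = 0.0436), where 3 of 35 CR genes and 5.24% of all genes were called. Its opposite gene CG1109 stood at -0.10 with the block. Antisense reads at CR46134 stood at 46.1, 36.7 and 52.5 CPM after siTj. In 1 siTj library, siTj 2, the sense share of CR46134 was at or below the library's antisense share (9.27%). Its sense reads there cannot be told apart from wrong-strand reads.

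CR44997 had 163, 256 and 230 CPM after siTj, against 399, 289 and 424 CPM after siGFP; the ranges do not overlap. The log2 difference was -0.73 with the block (edgeR adjusted p = 0.155) and -0.76 without (edgeR adjusted p = 0.61), and it was 0.61 over exon reads alone. The exon value rests on few reads, 172 over all libraries with none in siGFP 1.

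**Figure D3:**
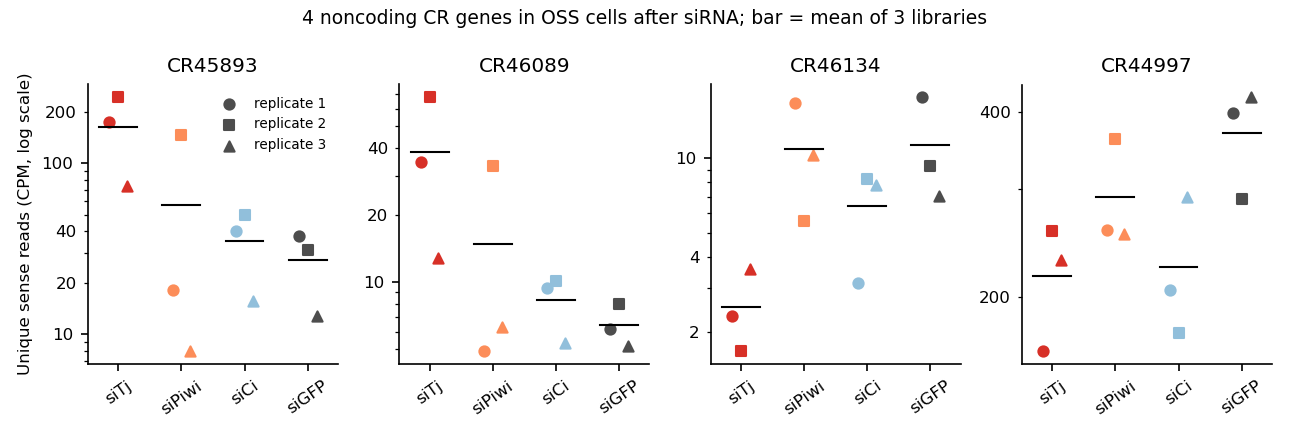
Unique sense reads (CPM, log y axis) of CR45893, CR46089, CR46134 and CR44997 in each OSS library after siTj, siPiwi, siCi and siGFP; symbols give the replicate number and bars the mean of 3 libraries. The siTj points of CR45893 and CR46089 lie above all siGFP points and those of CR46134 and CR44997 below, while siPiwi 2 (orange square) joins the high points in the first 2 panels.

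The calls depended on single libraries. With the block, no CR gene was called when siGFP 1, siGFP 2 or siTj 1 was left out, where 0.296%, 1.27% and 0.545% of all genes were. CR45893 alone was called without siTj 2 (3.37% of all genes), and CR46089 alone without siTj 3 (0.779%). Without siPiwi 2, 5 of 62 were called (CR45893, CR45962, CR45973 and CR46089 higher, CR46134 lower), or 8.06%, against 6.47% of all genes. Without siPiwi 2 and siTj 2, 7 were called: CR45893 and CR46089 higher, and CR43960, CR44779, CR44997, CR45388 and CR46006 lower, or 11.3%, against 7.47% of all genes. The summed level of a list of 10 heat shock genes was 971 to 12159 CPM after siTj and 221 to 380 CPM after siGFP. It was also 7387 CPM in siPiwi 2, where CR45893 and CR46089 were high, and 2367 CPM in siCi 1. The other siPiwi and siCi libraries had 265 to 897 CPM. Muscle markers summed to 673 to 785 CPM after siTj and 466 to 626 CPM after siGFP, and hemocyte and fat body markers to 369 to 928 CPM after siTj and 129 to 269 CPM after siGFP. The part of these genes in the values above was not tested.

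CG14629 lies inside CR44779, with counts equal to 12.7 to 25.0% of the host's after siTj and 27.2 to 58.9% after siGFP. CR44779 had 14.2, 28.7 and 8.86 CPM after siTj against 34.8, 26.8 and 15.9 CPM after siGFP. The ranges overlap, and the log2 difference of CR44779 was -0.60 with the block (edgeR adjusted p = 0.339). CG14629 fell to 1.81, 3.83 and 2.21 CPM after siTj, against 9.48, 10.0 and 9.37 CPM after siGFP (log2 -1.83 with the block, edgeR adjusted p = 0.0487).

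After siPiwi none of 62 CR genes was called, with or without the block, and none of all 10724 genes (0.0%). By edgeR no CR gene had an unadjusted p under 0.05 without the block and 1 had with it (2.27% of all genes); DESeq2 called 0 CR genes and 0.0186% of all genes. The median log2 fold change was 0.34 over the CR genes and 0.03 over all genes; without siPiwi 2 and siTj 2 it was -0.21 and -0.03. Of the CR genes the highest was CR32111, at 3.62 through siPiwi 2 alone (13.6 CPM, against 0.16 and 0.20 CPM in the other siPiwi libraries). After siCi none of 62 was called by edgeR, with or without the block, or by DESeq2 (0.0% of all genes), and 0 had an unadjusted p under 0.05 without the block and 3 with it (3.84% of all genes). The median was -0.21 over the CR genes and -0.01 over all genes. These comparisons share the siGFP libraries.

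Mutant and WT ovaries were compared over the 6 lines with the line as a block. None of 66 CR genes tested was called by edgeR (lowest adjusted p = 0.436), nor any of 11155 genes (0.0%); 5 CR genes and 11.1% of all genes had an unadjusted p under 0.05. DESeq2 called CR43960 higher and CR46258 lower, and 2.95% of all genes. The median log2 fold change was -0.04 over the CR genes and -0.07 over all genes.

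Taken line by line, with 1 library a genotype and so no test, the lines fell into different sizes of difference. More than 2-fold apart in either direction were 6 of 71 CR genes in FITS (4.61% of 8328 ovary genes), 4 in FPSE1 (11.2%), 6 in FPSE2A (5.28%) and 4 in FPSE2B (3.83%). There were 25 in FlamBG (36.0%) and 24 in FlamKG (53.5%). The 8328 genes had at least 5 CPM in at least 3 ovary libraries. The 71 CR genes were not filtered so: 18 reached that level in OSS cells alone and 5 in neither tissue alone. The shares are thus of unlike sets. The sum of 10 follicle cell and somatic ovary markers was 315 CPM in the FlamBG mutant against 765 CPM in its WT, and 381 CPM in the FlamKG mutant against 6833 CPM in its WT. The 8 germline markers summed to 1916 CPM in the FlamBG mutant against 5400 CPM in its WT, and to 633 CPM in the FlamKG mutant against 2779 CPM in its WT. The part of these differences in the counts of those lines was not tested.

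The sign was the same in all 6 lines for 4 of the 71 CR genes, and for 7.71% of the 8328 genes. Of the 4, CR43461 and CR45109 did not reach the ovary level by which the 8328 were kept. CR43960 on the X was higher in each mutant. It had 66.7 CPM in the FITS mutant against 12.05 in WT, 81.7 against 65.2 in FPSE1, and 62.9 against 29.3 in FPSE2A. In FPSE2B it had 37.2 CPM in the mutant against 16.5 in WT, in FlamBG 294 against 25.3, and in FlamKG 2466 against 99.7. Each mutant lay above its own WT, by the smallest factor in FPSE1, and the ranges over lines overlap. The edgeR log2 fold change over lines was 2.06 ± 0.66 (SE, adjusted p = 0.436).

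Muc11A, nested in CR43960, followed the same course, with 2461 CPM in the FlamKG mutant against 93.9 in WT and 280 CPM in the FlamBG mutant against 13.9 in WT. Over exon reads alone the log2 difference of CR43960 was -0.82, the opposite sign. That value rests on few reads: 225 exon reads over all libraries, or 0.11%, and none in the FlamBG and FlamKG mutants.

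CR46258, a gene on 2L with no overlap and 99.96% exonic reads, was lower in each mutant. It had 2.64 to 11.2 CPM in mutants with a median of 7.52 CPM, against 6.41 to 19.6 CPM in WT with a median of 14.8 CPM. The edgeR log2 difference was -1.05 ± 0.25 (SE, adjusted p = 0.436), and DESeq2 gave an adjusted p of 0.00164. CR43461 was lower and CR45109 higher in each mutant, by mean log2 differences of -0.49 and 0.47.

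In FlamBG and FlamKG some CR genes differed along with a nested or neighbouring coding gene and others did not. CR43836 stood at -0.12 and 0.06 on the log2 scale in FlamBG and FlamKG, while CG10962 inside it stood at 4.10 and 3.38. CR44779 had 206 CPM in the FlamBG mutant against 14.05 in WT, and 230 CPM in the FlamKG mutant against 29.3 in WT. CG14629 inside it had 195 CPM against 2.89 in FlamBG and 217 CPM against 10.7 in FlamKG. The rise of the CR44779 total was thus about as large as that of CG14629, whose reads it includes. CR43250 had 0.00 CPM in the FlamBG mutant against 15.8 in WT and 0.03 CPM in the FlamKG mutant against 21.99 in WT, while Ilp8 had 0.74 CPM against 64.5 in FlamBG and 5.51 CPM against 496 in FlamKG.

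CR40469 and CR46195 were picked out in these lines after their values were seen. CR40469 had 0.02 CPM in the FPSE1 mutant against 8.49 in WT, and 0.81 CPM in the FlamBG mutant against 37.9 in WT. In FITS it had 3.03 CPM in the mutant against 2.58 in WT. CR46195 had 72.8 CPM in the FlamBG mutant against 6.92 in WT and 14.2 CPM in the FlamKG mutant against 1.59 in WT, with 2.93 to 8.14 CPM in the other mutants.

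CR44997 had 31.3 and 32.6 CPM in FPSE2A and FPSE2B mutants against 23.6 and 20.03 CPM in their WT ovaries, and 4.49 to 8.45 CPM in both genotypes of the other lines. Both genotypes of FPSE2A and FPSE2B lay above every other ovary. Antisense reads at CR44997 were about as many as sense reads there. They stood at 27.97 and 35.47 CPM in the FPSE2A and FPSE2B mutants and 20.74 and 17.52 CPM in their WT. In the other ovaries they stood at 2.37 to 7.13 CPM. Whether these reads come from the annotated transcript was not tested.

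**Figure D4:**
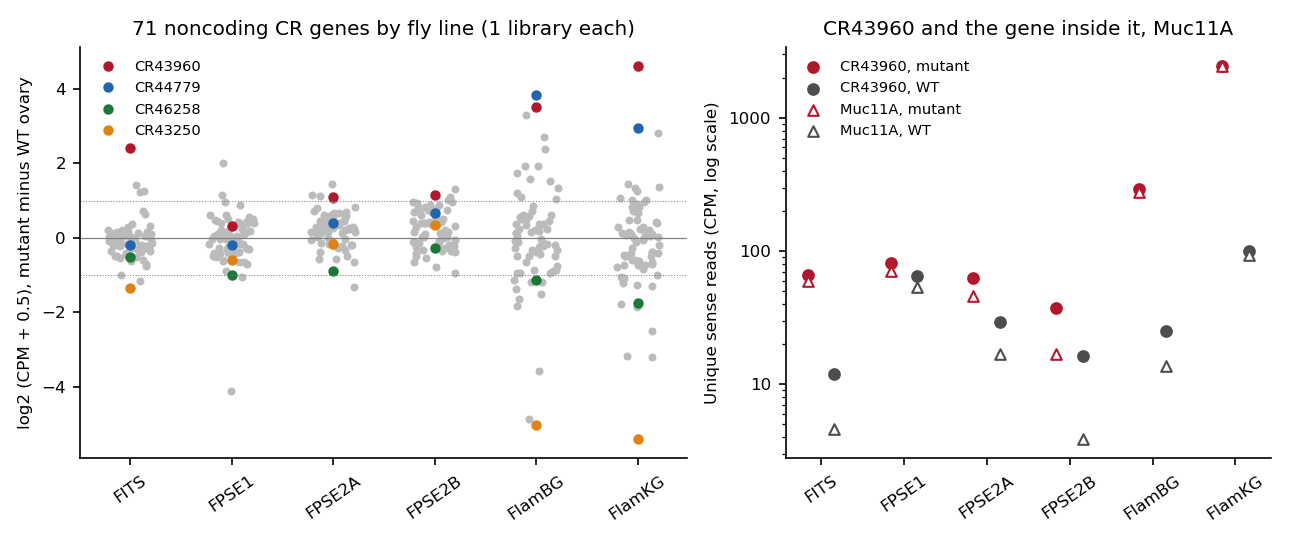
Left, log2 (CPM + 0.5) of mutant minus WT ovary for each of the 71 noncoding CR genes in each line, 1 library a genotype, with dotted lines at 2-fold. Right, CPM (log y axis) of CR43960 and of Muc11A inside it in mutant and WT ovaries; the spread is widest in FlamBG and FlamKG, and the Muc11A triangles track the CR43960 circles.

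Over the 6 lines the log2 fold changes of CR genes and their leading same-strand partners correlated at r = 0.88 over 29 pairs, and at r = -0.13 over 32 pairs with opposite-strand genes, both across genes. After siTj the same values without the block were 0.71 over 27 pairs and -0.03 over 30 pairs. Same-strand pairs share reads, so the first value of each pair of r is in part a count taken in both genes.

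Chromatin lists from OSS cells were read at the same genes. H3K4me3 marks active promoters and H3K9me3 silent chromatin; each list is 1 Cut&Run library, so there is no replicate check within siTj or siGFP. An H3K4me3 summit lay within 500 bp of the annotated start of 3 CR genes (4.2%) in the siTj list and 9 (12.7%) in the siGFP list, against 26.3% and 53.8% of 8974 other genes at the level. In the lists labelled plain it was 13 (18.3%) and 11 (15.5%), against 56.9% and 52.0% of other genes. Of the 9 in the siGFP list 5 have another gene's start within 500 bp, as have 9 of the 13 in the first plain list, so those summits cannot be given to one start. The siTj list is shorter as a whole, with 3134 summits against 6255 in siGFP, and no change is read from it.

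By call in OSS over ovary, a siGFP H3K4me3 summit lay at the start of 0 of 21 higher CR genes, against 53.0% of 1990 higher other genes. It lay at 5 of 24 lower CR genes (20.8%), against 39.3% of other genes, and at 4 of 26 not called (15.4%), against 62.2%. These are counts of few genes, with no test. CR45995, CR46134, CR46089 and CR45893 had none in any of the 4 lists. In both plain lists and the siGFP list together, 6 CR genes had one, CR42861 and CR45217 among them.

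An H3K9me3 summit lay in the locus or within 1000 bp of it for 11 CR genes (15.5%) in the siTj list and 23 (32.4%) in the siGFP list, against 6.5% and 14% of other genes. Here too the siTj list is shorter as a whole, with 8829 summits against 16939 in siGFP, and no change is read from it. A long locus has more room for a summit: the 23 had a median length of 35019 bp and the rest of the CR genes 2122 bp. Across the siTj, siGFP and both plain lists, 11 CR genes had a summit in every list, CR44997 among them. The pericentric ends of 2R and the X were not left out when the CR genes were chosen. CR43256 and CR46064 on 2R and CR44997 on the X had a summit in the siGFP list and both plain lists. The part of pericentric position in these shares was not tested.

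A TJ ChIP peak lay within 1000 bp of the start of 9 CR genes (12.7%), against 11.5% of other genes, out of 1987 peaks. Anywhere in the locus a peak lay in 20 CR genes (28.2%), against 15.5% of other genes, with locus length not held equal. The 9 with a peak at the start were CR42861, CR43857, CR43900, CR44178, CR44997, CR45217, CR45756, CR45973 and CR46061. Of the 7 that could be tested after siTj, 3 had a log2 fold change below 0 with the block and 4 above, with a median of 0.39, and none was called. CR45973, opposite CG13248, had 12.3, 16.4 and 13.0 CPM after siTj against 2.42, 5.74 and 5.10 CPM after siGFP, with no overlap (log2 1.78 with the block, edgeR adjusted p = 0.113).

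**Figure D5:**
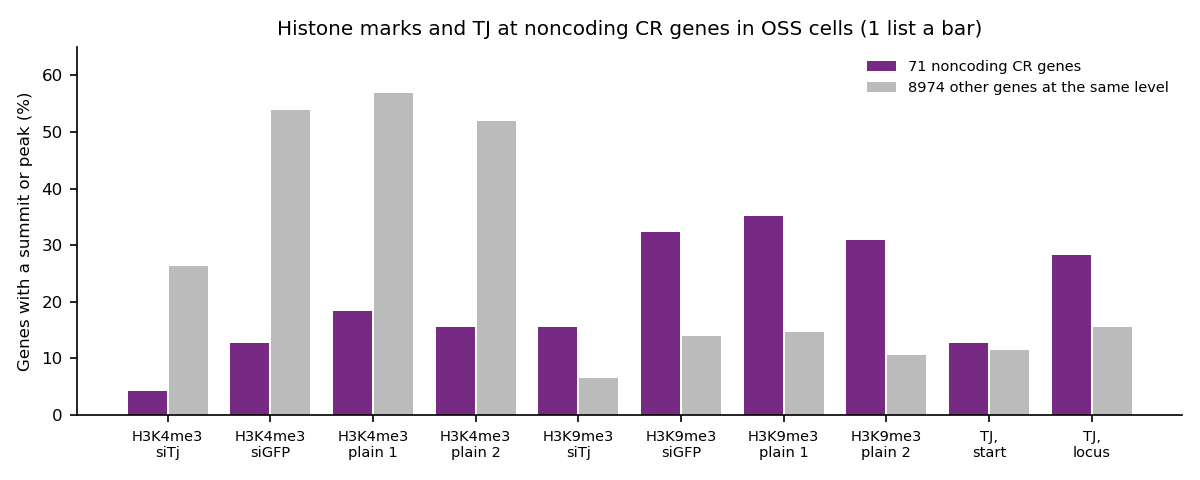
Share (%) of the 71 noncoding CR genes and of 8974 other genes at the same level with an H3K4me3 summit at the start, an H3K9me3 summit in or near the locus, or a TJ peak at the start or in the locus, in OSS cells, 1 bar a list. H3K4me3 bars are lower for the CR genes in all 4 lists, H3K9me3 bars higher, and the TJ bars at the start differ little (12.7 and 11.5%).

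Small RNA tables gave a second readout for CR genes that hold a microRNA hairpin. By RefSeq coordinates 8 of the 71 loci contain at least 1 hairpin, though the strand of the hairpin was not checked. OSS values are RPM, reads scaled to a common library size, that the authors pooled over replicates, so they have no error. CR45388 contains mir-315, a microRNA known to promote Wingless signalling in flies. Its 5p arm had 62.3 RPM after siTj, 261 after siPiwi and 156 after siCi, against 181 RPM after siGFP; in ovaries it had 1.72 to 20.1 RPM.

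CR45388 itself had 1.5, 3.74 and 0.64 CPM after siTj against 11.02, 3.40 and 4.13 CPM after siGFP, ranges that overlap (log2 -1.72 with the block, edgeR adjusted p = 0.167). CR46006 contains mir-276a, whose 3p arm had 32730 RPM after siTj against 36560 RPM after siGFP. CR46006 had 3.61, 20.01 and 4.21 CPM after siTj against 20.5, 18.2 and 13.1 CPM after siGFP, which overlap.

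CR44206 contains mir-184, a microRNA needed in the female germline of flies; its 3p arm had 20063 RPM after siTj against 19248 RPM after siGFP, and CR44206 differed by -0.01 on the log2 scale with the block (edgeR adjusted p = 0.987). CR43857 contains mir-275, with 5818 RPM of the 3p arm after siTj against 3412 RPM after siGFP, while CR43857 had 1.25, 2.84 and 1.93 CPM after siTj against 0.55, 3.15 and 4.27 CPM after siGFP. Hairpins mir-31b in CR43836, mir-133 in CR44909 and mir-281-1 in CR46194 had at most 64.7 RPM per arm in any OSS group.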

How the data were processed

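Long RNA was measured in 24 libraries (12 OSS, 12 ovary). The deposited gene tables hold raw counts per gene made by the authors: unique reads and all positions, sense and antisense, whole locus and exons; strand-specific counting is read from the table columns. Small RNA tables give RPM, normalized by the authors per the file headers to a total that is not stated, pooled over 3 replicates in OSS. The authors' deposited Cut&Run summits and TJ peaks carry −log10 scores. Per the submitters' processing notes FastQC, Bowtie2, MACS2 and DESeq2 were used; their settings and the genome build are not given in the sources used here, and coordinates are those of the tables.

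CPM divide unique sense locus counts by their library sum. Fold changes are from edgeR 4.0.16 (R 4.3.3; TMM, filterByExpr, quasi-likelihood test, Benjamini-Hochberg over all genes, threshold 0.05). The code was run on simulated counts for the siTj comparison alone. Those counts had the spread of the blocked fit and no replicate effect, so the run says nothing of error rates in these data. The 12 OSS libraries shared 1 fit without a block; ovaries had the line as a block, and siGFP cells over WT ovaries were a separate fit. Alternatives were DESeq2 1.42.0, RLE factors, no filter, all positions, exon counts, the replicate block and leaving libraries out. The replicate numbers come from the labels: all 18 same-number pairs of OSS libraries deviated together (r 0.24 to 0.90; other pairs -0.81 to 0.48), so blocked values are given where they change a call. The biological coefficient of variation was 0.76 without and 0.455 with the block. Per-length levels use exon counts.

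Genes named are those called, up to 8 a direction; the 12 highest by mean CPM; those with a hairpin or a TJ peak at the start; the 3 on each side of the level; and those of one sign in 6 lines. The CR genes, lists and tests were chosen with earlier results of these data known. Floors use 3 counts and intervals 95%, for counting error only.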

Additional observations from a re-analysis of the deposited data

Results flagged for a closer look

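CR45054, a gene on 3R with no overlapping gene and 10.39% exonic reads, had 45.2 CPM in the WT ovary of FPSE2B and 12.9, 16.1, 16.9, 20.4 and 20.6 CPM in the other 5 WT ovaries. The FPSE2B mutant had 23.5 CPM. On the scale of log2 (CPM + 0.5), the gap to the next WT library was 0.631 of the range, above Dixon's 95% critical value for 6 samples. In all, 58 groups of 6 ovary libraries were examined for 29 CR genes, and chance alone flags about 1 group in 20.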

How the results depend on the processing

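With the replicate block 2 CR genes were called after siTj, against 0 without; on exon reads alone with the block, a setting chosen after seeing the data, 3 were called, by DESeq2 2, and with the block but without siPiwi 2 and siTj 2, 7. Leaving out 1 library gave 0 calls after siTj without the block and 0 to 5 with it, and 0 after siPiwi and siCi either way. The block changed no other count of calls. Leaving out 1 line gave 0 calls in ovaries, where DESeq2 gave 2, and the fit without a block 0. For OSS cells over ovary the range without 1 library was 40 to 45 of 71, and 27 of the 36 CR genes with no same-strand overlap were called: 3 of 6 at the level in both tissues, 12 of 14 in OSS cells alone, 12 of 13 in ovaries alone and 0 of 3 in neither alone. Over all genes, whatever their overlap, 43.4% were called. The share was 44.3% at the level in both tissues, 74.6% in OSS cells alone and 75.9% in ovaries alone. Of CR45822, called in that comparison, 6 of 14 alternatives lost the call (edgeR adjusted p up to 0.0917). The sign turned for CR44997 after siTj over exon reads (0.61, and 1.23 with the block) and for CR43960 in ovaries over exon reads (-0.82). Only 0.19% and 0.11% of the reads of CR44997 and CR43960 were exonic, so these values lie near the floor. The cause was not tested. A level of 2 CPM gave 130 genes and 10 CPM gave 43. H3K4me3 starts in the siGFP list numbered 4 when only scores above the list's median were kept, 3 within 250 bp and 16 within 1000 bp, and in the siTj list 1, 1 and 6; H3K9me3 loci in siGFP numbered 15 with scores above the median. Of 25 recomputed counts whose main count is above 0, 15 stayed within 1.5 times. At this depth, 7 CR genes reached the level only with siPiwi 2 or siTj 2, leaving 64.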

Other observations

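A list of 19 noncoding genes with names was read alongside, of which 16 are in the tables. The X-linked roX1 and roX2, dosage compensation RNAs of males, averaged at most 0.04 CPM in any group. The snoRNA hosts Uhg1, Uhg3 and Uhg8 averaged 0.18, 0.36 and 0.24 CPM in siGFP cells and 34.9, 70.5 and 24.8 CPM in WT ovaries (edgeR adjusted p = 0.000115, 0.000943 and 0.000476). The piRNA locus flam averaged 176 ± 60.3 CPM after siTj against 804 ± 433 CPM after siGFP (SD, n = 3 each; log2 -2.03 with the replicate block, edgeR adjusted p = 0.0161).

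Some CR genes of low level in most OSS libraries reached their highest OSS values in siPiwi 2 and siTj 2, and some of these were higher in FPSE2A and FPSE2B ovaries of both genotypes than in the other lines. They were noticed after the values were seen. CR44909 had 39.3 CPM in siPiwi 2, 25.5 CPM in siTj 2 and 0.54 to 5.95 CPM in the other OSS libraries. In ovaries CR44909 had 10.1 and 12.2 CPM in FPSE2A and FPSE2B mutants against 7.47 and 7.10 CPM in their WT, and 0.46 to 3.18 CPM elsewhere. CR31386 had 39.7 CPM in siPiwi 2, 25.9 CPM in siTj 2 and 0.14 to 3.96 CPM in the other OSS libraries. In ovaries it had 8.53 and 12.3 CPM in FPSE2A and FPSE2B mutants against 5.53 and 6.47 CPM in their WT, and 0.41 to 2.16 CPM elsewhere. Antisense reads of CR31386 stood at 29.94 CPM in siPiwi 2 and 19.15 CPM in siTj 2. In FPSE2A and FPSE2B they stood at 8.53 and 11.57 CPM in mutants and 5.0 and 4.57 CPM in WT. Only 0.57% of its pooled sense reads were exonic. Whether the reads of these 2 loci come from the annotated transcripts was not tested.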
